A study of Pyrus pyrifolia with 6 samples.

Results

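The desiccation protectant protein Lea14 homolog (gene 103931096) and the dehydrin COR47 (gene 103927172) are 2 of the 42966 genes in a table of fruit skin transcripts of sand pear (*Pyrus pyrifolia*). They were chosen by their identifiers, for their names as desiccation protectants, with earlier results of these data known. Both genes passed a filter on low values, a mean over all libraries of 0.1 FPKM or more, that left 30161 genes for testing. FPKM, the fragments on a gene scaled to its length and to the depth of the library, can be compared between genes.

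RNA was sequenced from the russet fruit skin of 'Niitaka', libraries A1, A2 and A3, and from the green fruit skin of 'Suisho', libraries B1, B2 and B3. 'Suisho' is a bud mutant line of 'Niitaka', i.e., a line grown from a mutated shoot that otherwise shares the genome of its parent. Skin was taken at 80 DAA from healthy plants grown in the open, and each sample combined the skin of 10 fruits. Each skin type is represented by 1 line, so the skin color cannot be told apart from any other difference between both lines.

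Late embryogenesis abundant (LEA) proteins are mostly hydrophilic proteins that build up in drying seeds and in tissues short of water. Many of them are known to protect proteins and membranes there. Dehydrins are a family of LEA proteins, and COR47 is named after a dehydrin gene of *Arabidopsis thaliana* that is induced by cold, drought and abscisic acid. Lea14 proteins belong to another LEA family, which folds into a stable structure where dehydrins are largely disordered. Russet skin is covered by dead, suberized cork cells of the periderm, whereas green skin keeps a waxy cuticle.

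The libraries rested on 31381552 to 42729578 reads, recovered from the FPKM values. Marker genes that the study had chosen on these same libraries are given as a description. Since they were so chosen, they do not test the labels. The summed level of 6 genes of suberizing periderm lay between 133 and 243 FPKM in russet skin and between 10.1 and 10.9 FPKM in green skin. The summed level of 9 genes of cutin- and wax-making epidermis lay between 11.0 and 23.5 FPKM in russet skin and between 143 and 183 FPKM in green skin, and 4 of these 9 genes were listed at 0 in all russet libraries. In bulk skin, fewer cells of a type and less RNA per cell cannot be told apart.

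The Lea14 homolog lies on scaffold NW_008988534.1 of the Chinese white pear genome, on the plus strand from 46347 to 47947, with a deposited length of 817 bp. COR47 lies on scaffold NW_008988050.1, on the plus strand from 116646 to 118608, with a deposited length of 1252 bp. No other gene of the table overlaps either of them. The sources used here do not give the version of the assembly.

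Lea14 was higher in russet skin, by 1.93-fold, and COR47 was the more abundant transcript in every library without a difference between the lines that passed the test. The Lea14 homolog had 80.5, 135 and 70.7 FPKM in the russet libraries A1, A2 and A3, and 46.0, 51.7 and 45.0 FPKM in the green libraries B1, B2 and B3. The lines did not overlap, as the lowest russet library lay above the highest green one. All 3 russet libraries lay above all 3 green libraries in 17.2% of the tested genes. The means were 95.3 ± 34.5 FPKM in russet and 47.6 ± 3.65 FPKM in green skin (SD, n = 3 each). The difference on the log2(FPKM + 0.1) scale was 0.95 (SE 0.24, 95% interval 0.38 to 1.51, adjusted p = 0.0384, limma with Benjamini-Hochberg adjustment over all tested genes). By this test 15.3% of the genes were called and 8.05% were called as higher in russet skin, and 4117 genes had a p as small as that of Lea14 or smaller.

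The COR47 dehydrin had 224, 243 and 118 FPKM in the russet libraries A1, A2 and A3, and 316, 297 and 110 FPKM in the green libraries B1, B2 and B3. The lines overlapped fully, and the highest as well as the lowest library was green. The means were 195 ± 67.4 FPKM in russet and 241 ± 114 FPKM in green skin (SD, n = 3 each). The difference on the log2 scale was -0.23 (SE 0.46, adjusted p = 0.804, limma). Its 95% interval ran from -1.32 to 0.86, that is, from 0.400-fold to 1.81-fold of the green level. In this fit a change of nearly that size in either direction could have been missed.

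**Figure D1:**
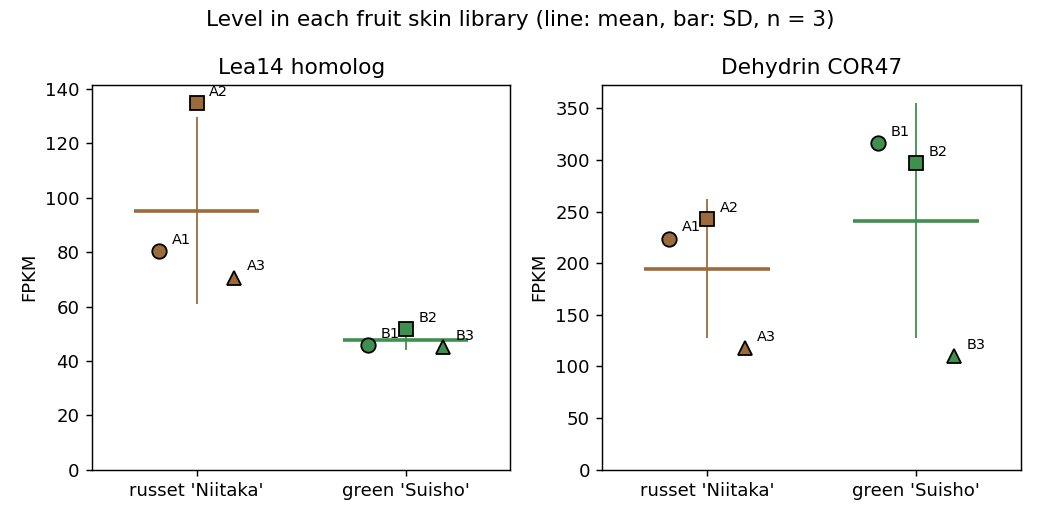
Level in FPKM of the Lea14 homolog (left) and of dehydrin COR47 (right) in each library, with the mean as a horizontal line and the SD as a bar (n = 3). The 3 russet libraries of Lea14 lie above the 3 green ones, whereas those of COR47 overlap and A3 and B3 lie apart from the other 4 libraries at 118 and 110 FPKM.

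Both transcripts were among the abundant ones of the fruit skin. By its mean over the 6 libraries, COR47 ranked 384th and Lea14 ranked 1691st of the tested genes. Lea14 ranked between 736th, in A2, and 1678th, in A3, within russet libraries, and between 2543rd, in B2, and 2971st, in B3, within green libraries. COR47 ranked between 361st, in A2, and 847th, in A3, within russet libraries, and between 226th, in B1, and 954th, in B3, within green libraries. The values rested on 9353 reads in russet skin and 4215 reads in green skin for Lea14, and on 28658 reads in russet skin and 33990 reads in green skin for COR47.

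Counting error was small beside the spread between libraries, except for Lea14 in green skin. For Lea14 in A3, the lowest russet library, the exact Poisson 95% interval was 67.9 to 73.5 FPKM, and in B2, the highest green library, it was 49.2 to 54.4 FPKM. The Lea14 intervals of B1, 43.7 to 48.3 FPKM, and of B3, 42.5 to 47.7 FPKM, overlapped. For COR47 the intervals were 115 to 121 FPKM in A3 and 107 to 113 FPKM in B3. These intervals cover counting error only. The labels do not say whether the samples of a line came from separate trees, so the tests measure the spread between these samples.

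The call on Lea14 stood close to the threshold. In a single simulated data set, with the same dispersion for every gene, false calls exceeded the share that the threshold aims for. The excess was small for this test and larger for that of the library number. Fewer genes were changed in that single run than were called here, so it does not give the false share of these calls. Adjusted p-values just under 0.05 are to be read with caution, here and for COR47 and the PYR1-like gene below. The call on Lea14 was lost when library A1 (adjusted p = 0.0694, limma), B1 (adjusted p = 0.108), B2 (adjusted p = 0.0890) or B3 (adjusted p = 0.106) was left out. The log2 difference then lay between 0.91 and 1.04. Without A2, the russet library with the highest level, the difference was 0.67 (SE 0.13) and the call held (adjusted p = 0.0273, limma). It also held without A3, with a log2 difference of 1.13 (adjusted p = 0.0284, limma). It was lost with median-ratio scaling (adjusted p = 0.0550, limma) and without a trend in the moderation (adjusted p = 0.0689, limma), at unchanged log2 differences of 0.94 and 0.95. With all 6 libraries, the alternatives gave an adjusted p from 0.0128 to 0.0689.

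For COR47 the direction depended on single libraries. The log2 difference was 0.10 without A3 and 0.04 without B1, -0.01 without B2, and -0.72 without B3. In none of the 6 fits with 1 library left out was COR47 called (adjusted p from 0.247 to 0.996, limma).

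**Figure D2:**
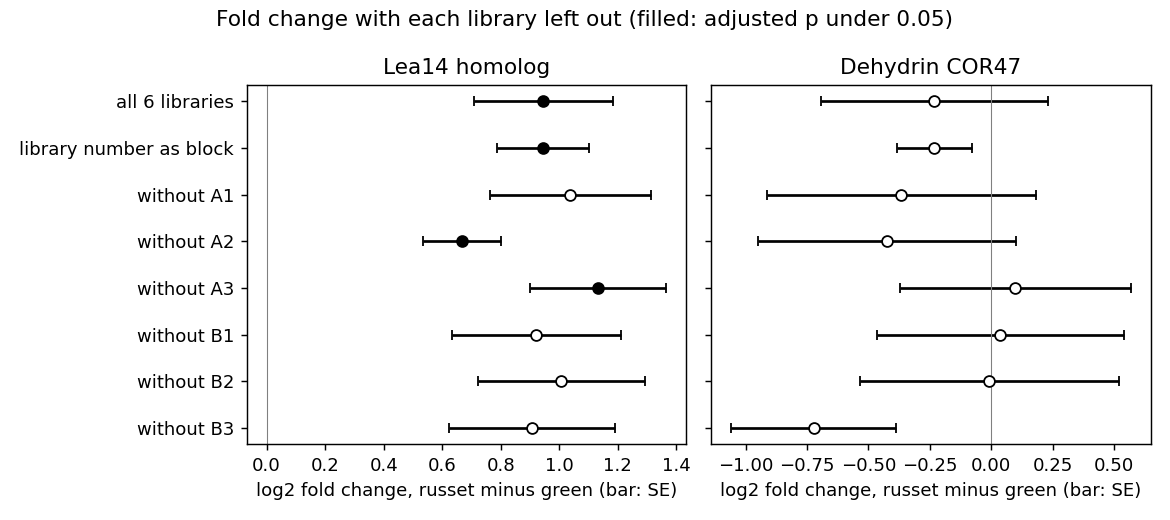
Log2 difference of russet minus green skin for Lea14 (left) and COR47 (right), with all 6 libraries, with the library number as a block, and with each library left out, where bars are SE from limma and filled points have an adjusted p under 0.05. Lea14 stays between 0.67 and 1.13 above 0, whereas COR47 lies on both sides of 0, between -0.72 and 0.10.

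The libraries of a line differed from each other in both genes, but not in the same libraries. Within russet skin the highest library had 1.91 times the level of the lowest one for Lea14 and 2.06 times for COR47. Within green skin these ratios were 1.15 for Lea14 and 2.88 for COR47. The coefficient of variation of Lea14 was 36.2% in russet skin and 7.67% in green skin, and that of COR47 was 34.6% in russet skin and 47.3% in green skin. Lea14 thus varied mainly in russet skin, through A2, whereas COR47 varied in both lines, through A3 and B3.

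This spread was set against genes of like abundance. The pooled SD within lines was 0.36 on the log2 scale for Lea14, beside a median of 0.18 for the 3161 genes whose mean was within 2-fold of its own, and it was larger than that of 82.9% of them. For COR47 the pooled SD was 0.73, beside a median of 0.22 for the 863 genes within 2-fold of its mean, and it was larger than that of 91.0% of them.

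COR47 was lowest in the library with number 3 in both lines. The level in A3 was 0.504 times the mean of A1 and A2, and the level in B3 was 0.359 times the mean of B1 and B2. For Lea14 the ratio was 0.657 in russet and 0.921 in green skin. Number 3 was the lowest library in both lines in 11.3% of the tested genes, and this held for Lea14 as well as for COR47.

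The library number was tested in a fit with the line as the other term, as number 3 against the mean of 1 and 2. This contrast was chosen with the low levels of COR47 in A3 and B3 known. COR47 was lower in number 3 by 1.23 on the log2 scale (a log2 difference of -1.23, SE 0.16, adjusted p = 0.0355, limma), i.e., at 0.426-fold of the level in numbers 1 and 2 with a 95% interval of 0.323 to 0.562. In this contrast 1.58% of the tested genes were called and 1.08% were called as lower in number 3. Without a trend in the moderation COR47 was not called (adjusted p = 0.186, limma), and over the alternatives its adjusted p ran from 0.0291 to 0.186. For Lea14 the log2 difference was -0.34 (SE 0.17, adjusted p = 0.371, limma). The median of all tested genes in this contrast was 0.10, on the other side of 0 from both genes.

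Library A3, with 41863571 reads, was among the deepest and B3, with 31381552 reads, was the shallowest, and COR47 was low in both. Apart from the names of the libraries, A3 and B3 are tied by their deviations from the mean of their line, which correlated across genes at r = 0.323, the highest value of any russet and green pair. What same-numbered libraries share, such as a tree, a harvest or a preparation, the sources used here do not say, and it was not tested. The sample labels number the green samples differently from the library names.

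Between lines, the libraries were therefore also compared number by number. For Lea14 the russet level was 1.75 times the green level in number 1, 2.60 times in number 2 and 1.57 times in number 3. For COR47 it was 0.708 times the green level in number 1, 0.817 times in number 2 and 1.07 times in number 3. Lea14 was thus higher in russet skin in 3 of 3 pairs, and COR47 was lower in 2 of 3. For Lea14 any pairing would give 3 of 3, since its lines did not overlap, so this adds nothing to that result. With the library number as a block, the 95% interval ran from 0.656-fold to 1.11-fold of the green level for COR47. For Lea14 it ran from 1.47-fold to 2.53-fold. These intervals rest on a pairing that no label states. With both libraries of number 3 left out, the log2 difference of COR47 was -0.39 (SE 0.18, adjusted p = 0.284, limma, 2 libraries a line), and that of Lea14 was 1.09 (adjusted p = 0.0782, limma).

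**Figure D3:**
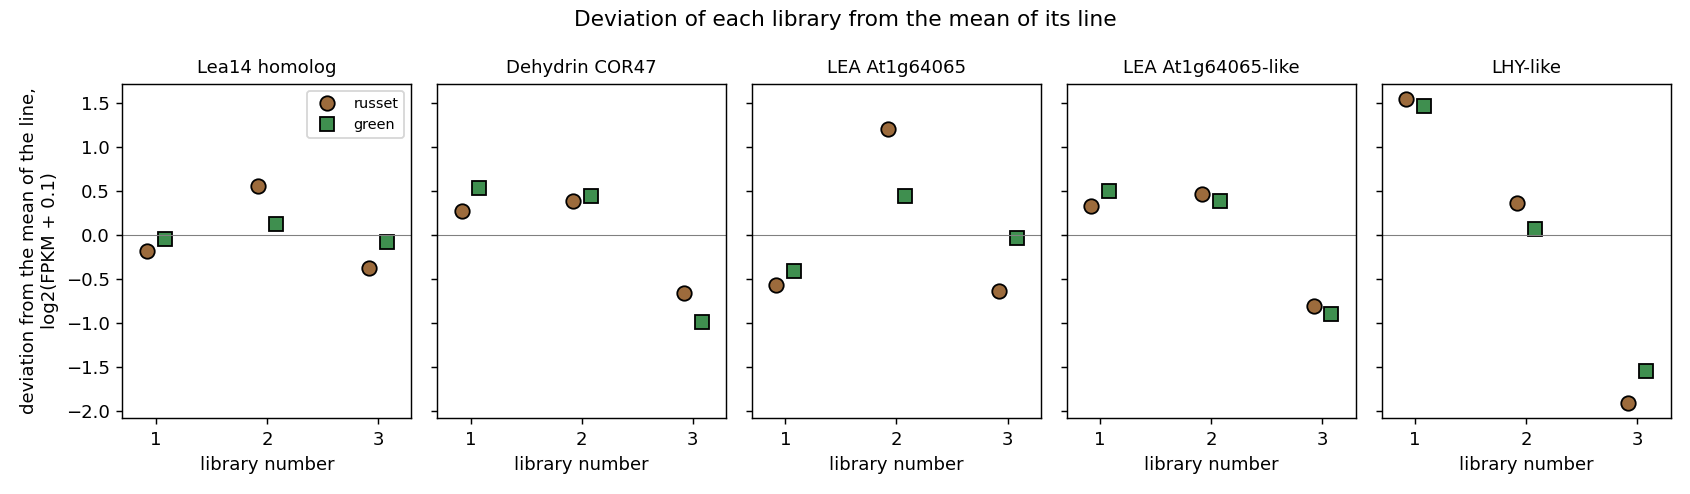
Deviation of each library from the mean of its line on the log2(FPKM + 0.1) scale, by library number, for both genes, 2 other LEA genes and the clock gene LHY-like. For COR47, the LEA At1g64065-like gene and the LHY-like gene both lines lie lowest in number 3, whereas Lea14 and the LEA At1g64065 gene lie highest in number 2.

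The ratio of both transcripts within a library does not depend on depth. The level of Lea14 was 0.359, 0.555 and 0.601 times that of COR47 in A1, A2 and A3, and 0.145, 0.174 and 0.409 times in B1, B2 and B3. The ratio was higher in russet skin in each pair of same-numbered libraries, but the lines overlapped, since A1 lay below B3. The mean log2 ratio was -1.02 ± 0.40 in russet skin and -2.20 ± 0.80 in green skin (SD, n = 3 each). The difference was 1.18 (exact permutation test, two-sided p = 0.20, n = 3 each). This design allows no p below 0.10, so the test could not pass 0.05 whatever the values.

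Descriptions from the gene tables of the study were at hand for 2013 genes, so the following lists are not complete families. They name 6 genes of the LEA and dehydrin family, of which 4 could be tested. Of these 4, Lea14 was called as higher in russet skin and 0 were called as lower (limma, with 0 lower at an unadjusted p under 0.05 and 0 with limma voom on the recovered reads). Over all tested genes 15.3% were called and 8.05% were called as higher in russet skin. The called gene is a chosen member, so this count is no result about the family. The median log2 difference over the 4 was -0.22, against 0.00 for all tested genes. The LEA protein 2-like gene was listed at 0 in all libraries, and the LEA protein D-34-like gene had 2 reads over the russet and 13 over the green libraries.

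The other 2 LEA genes that could be tested lie on the same scaffold, NW_008988417.1, and carry the name of an *Arabidopsis* LEA gene, At1g64065. The sources used here do not say how reads shared between such similar genes were assigned. The LEA At1g64065-like gene (103927318) had 11.0, 12.2 and 4.95 FPKM in A1, A2 and A3, and 18.4, 17.0 and 6.91 FPKM in B1, B2 and B3. As with COR47, number 3 was lowest in both lines. Its log2 difference in the contrast of number 3 with 1 and 2 was -1.28 (SE 0.12, adjusted p = 0.0164, limma). Between the lines the log2 difference was -0.56 (SE 0.47, adjusted p = 0.508, limma), but with the library number as a block it was called (adjusted p = 0.0227, limma), which made 2 called genes in the family.

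The LEA At1g64065 gene (103927311) had 6.49, 22.4 and 6.18 FPKM in A1, A2 and A3, and 8.34, 15.2 and 10.9 FPKM in B1, B2 and B3. Here number 2 was highest in both lines, as for Lea14. It differed neither between the lines (log2 difference -0.20, SE 0.50, adjusted p = 0.846, limma) nor in number 3 (log2 difference -0.50, SE 0.28, adjusted p = 0.410, limma) by a margin that passed the test. In number 3 the log2 difference was thus called for the At1g64065-like gene beside COR47, for which the contrast had been chosen, against 1.58% of all tested genes, and was not called for Lea14 or the At1g64065 gene.

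Abscisic acid (ABA) is the hormone through which drying induces many LEA genes. Of 8 described genes of ABA signaling and breakdown, 2 were called between the lines, both higher in russet skin, beside 15.3% of all tested genes, and the median log2 difference was 0.13. With limma voom 1 of the 8 was called. The abscisic acid 8'-hydroxylase 1 gene, which encodes an enzyme of ABA breakdown, had 14.5 ± 3.00 FPKM in russet and 7.56 ± 1.27 FPKM in green skin (SD, n = 3 each), a log2 difference of 0.92 (adjusted p = 0.0225, limma). A PYR1-like ABA receptor gene had 2.01 ± 0.87 FPKM in russet and 0.60 ± 0.15 FPKM in green skin (log2 difference 1.51, adjusted p = 0.0451, limma), and was not called with the library number as a block (adjusted p = 0.0589).

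The most abundant ABA receptor genes did not pass the test. PYL9 had 101 ± 21.6 FPKM in russet and 96.2 ± 9.72 FPKM in green skin, and PYL8-like had 58.1 ± 6.72 FPKM in russet and 74.8 ± 6.01 FPKM in green skin (SD, n = 3 each). In the contrast of number 3 with 1 and 2, 0 of the 8 genes were called (limma), and 2 had an unadjusted p under 0.05. Of all 30161 tested genes, 1.58% were called there and 5143 had an unadjusted p under 0.05. The ABSCISIC ACID-INSENSITIVE 5-like protein 5 gene 103950197, named after its values were seen, came closest (log2 difference -0.62, adjusted p = 0.0610, limma). It had 77.4, 76.8 and 47.9 FPKM in A1, A2 and A3, and 59.1, 50.3 and 37.2 FPKM in B1, B2 and B3. Between the lines it had a log2 difference of 0.45 (adjusted p = 0.290, limma), which was called with the block (adjusted p = 0.0267). The factor ABI5 of *Arabidopsis* switches on LEA genes in seeds. Whether this pear gene, described only as like ABI5, does so was not tested.

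Of 3 described genes of the circadian clock, 1 was called in number 3, against 1.58% of all tested genes. Without a trend in the moderation 0 of all genes were called in this contrast. The LHY-like gene, named after a clock factor that peaks in the morning in *Arabidopsis*, had 82.2, 36.0 and 7.36 FPKM in A1, A2 and A3, and 89.0, 33.7 and 10.9 FPKM in B1, B2 and B3. Its lines overlapped, and number 1 was highest and number 3 lowest in both. Its log2 difference in number 3 was -2.59 (SE 0.15, adjusted p = 0.00640, limma), and between the lines it was -0.19 (adjusted p = 0.932, limma). The GIGANTEA-like gene, another clock component, had 88.2, 74.7 and 98.7 FPKM in A1, A2 and A3, and 81.2, 70.4 and 111 FPKM in B1, B2 and B3, so that it was highest in number 3 in both lines without passing the test (log2 difference 0.42, adjusted p = 0.158, limma). The pseudo-response regulator gene APRR7 was called between the lines, at 27.1 ± 4.16 FPKM in russet and 17.5 ± 1.22 FPKM in green skin (SD, n = 3 each, log2 difference 0.62, adjusted p = 0.0268, limma). APRR7 was lowest in number 3 in both lines, as the LHY-like gene and COR47 were, without passing the test (log2 difference in number 3 of -0.26, adjusted p = 0.278, limma). All 3 clock genes had an unadjusted p under 0.05 in this contrast, in one direction or the other (limma). Of all 30161 tested genes, 5143 had such a p. Their part in the spread of COR47 was not tested.

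**Figure D4:**
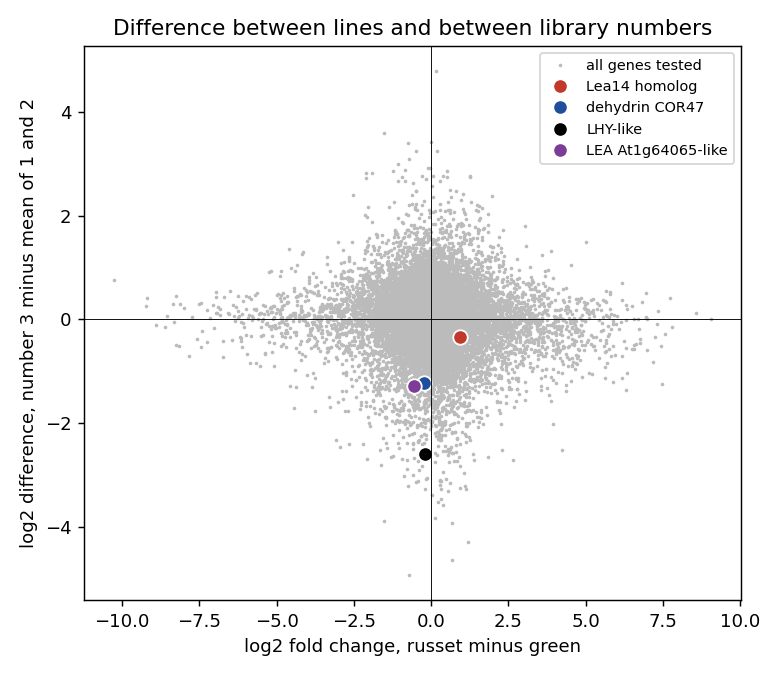
Log2 difference between russet and green skin (x axis) against the log2 difference between number 3 and the mean of numbers 1 and 2 (y axis) for the tested genes, each a grey point. Lea14 lies at 0.95 and -0.34, COR47 at -0.23 and -1.23, and the LHY-like gene lies below COR47 at -0.19 and -2.59.

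Among the 6 described heat shock genes, 4 of which could be tested, 0 were called in either contrast (limma), with 0 at an unadjusted p under 0.05 and 0 between the lines with limma voom. Of all 30161 tested genes, 15.3% were called between the lines and 1.58% in number 3. An unadjusted p under 0.05 was found for 8381 genes between the lines and for 5143 in number 3. With only 4 genes tested, a count of 0 is no result about them. The class II small heat shock protein genes, whose products hold unfolding proteins in solution, were high in B3 rather than low. Their gene 103927503 had 138, 229 and 97.0 FPKM in A1, A2 and A3, and 107, 217 and 344 FPKM in B1, B2 and B3. The gene 103927504 had 106, 199 and 69.7 FPKM in A1, A2 and A3, and 77.7, 190 and 326 FPKM in B1, B2 and B3. The summed level of the 6 genes ran from 241 to 564 FPKM in russet libraries and from 273 to 1077 FPKM in green libraries, with A3 the lowest and B3 the highest of all. COR47 was low in both of these libraries. The largest differences between the lines were -1.67 (SE 0.97, adjusted p = 0.328, limma) for 103927498 and -0.97 (SE 0.56, adjusted p = 0.323, limma) for 103927502 on the log2 scale.

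Of 3 stress genes that the study mentions beside the LEA genes, 2 could be tested. The RGA2-like disease resistance gene was higher in russet skin, at 1.44 ± 0.11 FPKM against 0.26 ± 0.09 FPKM in green skin (SD, n = 3 each, log2 difference 2.14, adjusted p = 0.00281, limma). The RPM1-like gene had 23.5 ± 3.08 FPKM in russet and 19.9 ± 3.43 FPKM in green skin (log2 difference 0.24, adjusted p = 0.403, limma). The heat shock cognate 70 kDa protein gene 103944940 had 1 read in the russet and 0 in the green libraries. No gene described as an enzyme of osmoprotectant synthesis or as a DREB or CBF factor, which bind the dehydration response element, was found among the described genes.

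Chlorophyll a-b binding protein genes mark green tissue under the skin, and 2 were described. Their summed level lay between 422 and 526 FPKM in russet skin and between 262 and 376 FPKM in green skin. One of them, 103926626, was called as higher in russet skin (log2 difference 0.62, adjusted p = 0.0228, limma), and the other, 103927393, was not (log2 difference 0.60, adjusted p = 0.181, limma), although it was called with the library number as a block (adjusted p = 0.0227). Lea14 was higher in the same line as these genes and as the periderm genes, and their part in its difference was not tested.

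The genes whose pattern was most like that of each member were found by Pearson's r of log2(FPKM + 0.1), over 23837 other genes whose mean was 1 FPKM or more. With only 6 points, shared libraries and so many genes, high values are found for many genes, and r is given as a description. Over the 6 libraries, the 5 genes most like Lea14 had r from 0.983 to 0.998, and the closest was Novel00153, a locus added by transcript assembly. It had 2.61, 4.58 and 2.28 FPKM in A1, A2 and A3, and 1.49, 1.67 and 1.35 FPKM in B1, B2 and B3. The only one of the 5 with a description was 103927570, a probable 1-deoxy-D-xylulose-5-phosphate synthase gene of the plastid isoprenoid pathway.

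The 5 genes most like COR47 had r from 0.987 to 0.997, and none of them was described. The closest was 103951060, with 58.2, 60.4 and 39.8 FPKM in A1, A2 and A3, and 69.5, 65.8 and 40.2 FPKM in B1, B2 and B3. The r of Lea14 with COR47 was 0.0936, so that their levels bore next to no linear relation over the 6 libraries. With the mean of each line taken out, it was 0.498.

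Within lines, each member was close in pattern to 1 of the 2 other LEA genes that could be tested, as it was to genes outside the family. The r of the values centred on each line was 0.989 for COR47 and the LEA At1g64065-like gene, but 0.320 for COR47 and the LEA At1g64065 gene. For Lea14 it was 0.960 with the LEA At1g64065 gene and 0.564 with the At1g64065-like gene. Described genes outside the family came as close or closer. The zinc metallopeptidase gene EGY3 had 0.991 with COR47, and an ABC transporter I family member 10 gene had 0.993 with Lea14. Of the clock genes, the LHY-like gene had a centred r of 0.873 with COR47 and 0.293 with Lea14. The GIGANTEA-like gene had -0.912 with COR47 and -0.644 with Lea14, and APRR7 had 0.796 with COR47 and 0.859 with Lea14. Over the 6 libraries without centring, r with COR47 was 0.868 for LHY-like, -0.901 for GIGANTEA-like and 0.155 for APRR7, and APRR7 had 0.962 with Lea14. The 5 genes of highest centred r had 0.995 to 0.999 for Lea14 and 0.999 throughout for COR47, and none of these 10 genes was described.

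The nearest genes on the scaffolds of both members passed the test in neither contrast, where they could be tested. Next to COR47 lies a gene for a lysine-specific histone demethylase 1 homolog, 1779 bp before its start, at 11.0, 9.98 and 10.7 FPKM in A1, A2 and A3, and 9.36, 8.19 and 11.0 FPKM in B1, B2 and B3 (log2 difference in number 3 of 0.18, adjusted p = 0.499, limma). The gene after it, 3650 bp beyond its end, encodes an alcohol dehydrogenase-like 7 and had a log2 difference of -0.40 in number 3 (adjusted p = 0.147, limma) and of 0.57 between the lines (adjusted p = 0.0770, limma). The gene before Lea14, 103931094, lies 22207 bp away and had a mean of 0.94 FPKM with a log2 difference of -0.04 between the lines (adjusted p = 0.973, limma). The gene after Lea14, 108865859, was listed at 0 in all libraries.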

How the data were processed

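Reads from 6 fruit skin libraries, 3 of russet 'Niitaka' and 3 of green 'Suisho', were aligned by the authors to the Chinese white pear genome. The submitters' processing notes name HISAT2 2.0.4, Cufflinks 2.1.1 and DESeq 1.18.0. The authors deposited FPKM values per gene and library beside a table of gene positions and lengths. The library columns name the line only by A and B, which a legend of the study assigns, and the sources used here do not tell which sample is which library within a line.

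Reads behind the FPKM were recovered as whole multiples of 1 read, within 0.0001. With the deposited lengths this held for 74.5% of the 191857 values above 0, and for 8439 genes another whole length gave whole reads, the lengths of both members being as deposited. At a length of 1000 bp, 1 read equals 0.0234 to 0.0319 FPKM.

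On the log2(FPKM + 0.1) scale, a linear model per gene was fitted to both lines in limma 3.58.1 under R 4.3.3, with variances moderated along a trend in the mean. Genes whose mean reached 0.1 FPKM were tested, two-sided, and called when the p-value after Benjamini-Hochberg adjustment was below 0.05. Fold changes are russet minus green on this scale, which understates those of low genes. The library number was tested in an additive fit. An exact permutation test was run with scipy 1.17.1. Other tools were Python 3.11.15, numpy 2.4.6, pandas 2.3.3 and matplotlib 3.10.9.

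Deviations of same-numbered libraries from the mean of their line correlated across genes at r = 0.195, 0.211 and 0.323 for numbers 1, 2 and 3, and each library correlated best with its own number, so the numbers were taken as pairs, although no label states a pairing. The study's methods name no block, so the reported fit has none and the block was an alternative. Both fits were tested on a single simulated data set with the same dispersion for every gene, which real genes do not share. False calls made up a larger share of the calls than the threshold aims for, more so in the fit of the library number. A single run with fewer changed genes than were called here does not give the false share of the real calls. The other alternatives changed the pseudocount to 1 or 0.01, dropped the filter or raised it to 1 FPKM, scaled by median ratios or by quantiles, moderated without a trend or robustly, took the recovered reads into limma voom, or left out each library in turn. Leaving out both libraries of a number was added after seeing the data.

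The members and lists were chosen with earlier results of these data known. The rule for named genes took both members, LEA genes averaging 10 FPKM or more, and, from each other list by description, up to the 2 most abundant genes and the 2 of largest change, with the 5 genes of highest r for each member and the neighbors. The epidermis and periderm lists serve only as a description of both skins and do not test the labels. Motifs and protein features were not analysed here.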

Additional observations from a re-analysis of the deposited data

How the results depend on the processing

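Over the 10 alternatives with all 6 libraries, the log2 difference of Lea14 kept its direction at 0.93 to 0.96. It was no longer called with median-ratio scaling (0.94, adjusted p = 0.0550, limma) or without a trend (0.95, adjusted p = 0.0689), and the count of called LEA and dehydrin genes was then 0 and 0. With 1 library left out, Lea14 lay between 0.67 and 1.13 and that count between 0 and 1. COR47 lay between -0.72 and 0.10, with a change of direction without A3 (0.10) and without B1 (0.04). Between 3172 and 3624 of all genes were then called, against 4625 with all libraries. With both libraries of number 1, 2 or 3 left out, which leaves 2 a line, the log2 difference of Lea14 was 1.01, 0.73 and 1.09, none of them called. The count of LEA and dehydrin genes called was then 0, 0 and 0, and that of all genes was 2164, 2013 and 2792. With fewer libraries each fit has fewer degrees of freedom. With the library number as a block, 6038 genes were called, the LEA and dehydrin genes called became 2, Lea14 stayed called (adjusted p = 0.0128) and COR47 stayed uncalled (adjusted p = 0.347), so that the pairing changed no other call on the members. In number 3, the difference of COR47 was -1.23 but not called without a trend, a setting in which 0 genes were called in that contrast (limma) and 4468 had an unadjusted p under 0.05. The difference in the ratio of Lea14 to COR47 ran from 0.88 to 1.63 with 1 library left out and kept its direction. Scaling moved the median of all genes in the contrast of number 3 from 0.10 to 0.01 at most. Each member had 1154 reads or more in every library.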

Other observations

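Of the 478 genes called in number 3 against 1 and 2, 326 were lower in number 3. Of these 478 genes, 23 were described, 20 of them lower and 3 higher in number 3, and the 20 include COR47 itself and the LEA At1g64065-like and LHY-like genes given above. The genes below were picked after their values were seen. The SENESCENCE-ASSOCIATED GENE 21-like gene (103928387), whose *Arabidopsis* counterpart encodes a small mitochondrial LEA protein, had 173, 298 and 57.3 FPKM in A1, A2 and A3, and 134, 140 and 46.0 FPKM in B1, B2 and B3. Its log2 difference in number 3 was -1.78 (adjusted p = 0.0213, limma). Its description does not hold the words by which the LEA list was drawn, so it is not counted there. It shared the low levels in A3 and B3 with COR47 and the high level in A2 with Lea14.

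The largest decrease among the 23 genes was that of a chaperone protein dnaJ 11-like gene, at 52.2, 130 and 8.87 FPKM in A1, A2 and A3, and 120, 105 and 13.5 FPKM in B1, B2 and B3 (log2 difference -3.12, adjusted p = 0.0164, limma). The calcium-binding protein CML23 gene had a log2 difference of -2.03 (adjusted p = 0.0309, limma). The chloroplast metallopeptidase gene EGY3 had 40.6, 51.2 and 12.9 FPKM in A1, A2 and A3, and 35.6, 36.6 and 8.08 FPKM in B1, B2 and B3 (log2 difference -1.98, adjusted p = 0.00787, limma). The sucrose transport protein SUC4-like gene was among the 3 genes that were higher in number 3, at 9.10, 9.48 and 17.9 FPKM in A1, A2 and A3, and 6.37, 7.38 and 15.3 FPKM in B1, B2 and B3 (log2 difference 1.04, adjusted p = 0.0260, limma).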
